A study of Mus musculus with 24 samples.

Results

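The genes described here are the matrix metalloproteases, the related ADAM and ADAMTS proteases, the ADAMTS-like proteins and the tissue inhibitors of metalloproteases (TIMPs), measured in mouse brown adipose tissue. They are the rows of the deposited table whose symbol is Mmp, Adam, Adamts or Adamtsl followed by a number (Mmp allows further letters), or Timp1 to Timp4, and whose mean over all 24 samples was at least 2.86 on the deposited log2 scale. Of 58 such rows among 23017 genes, 43 met that mean: 15 of 18 Mmp genes, 11 of 14 Adam genes, 11 of 17 Adamts genes, 2 of 5 Adamtsl genes and all 4 Timp genes. Among these rows the mean level alone decided, so no level is tested here. The set of symbols was chosen with earlier results of these data known. The members nearest the limit were Adamts16 at 2.86, Mmp8 at 2.91, Adamts7 at 2.94 and Mmp25 at 2.95, and the nearest genes below it were Adamts17 at 2.65 and Mmp13 at 2.59. The other genes below it were Mmp7, Mmp27, Adam5, Adam22, Adam33, Adamts8, Adamts12, Adamts13, Adamts14, Adamts20, Adamtsl1, Adamtsl2 and Adamtsl3.

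PolyA RNA was sequenced from brown fat of C57BL/6J mice in 4 groups of 6 samples, in a study titled as one of obese, insulin-resistant mice under chronic treatment. TZP is tirzepatide, an agonist of the receptors for both GIP and GLP-1. LAGIPRA is an agonist of the GIP receptor with a long action. PairFedVehicle is vehicle with food held to the intake of another group, and Vehicle is vehicle alone. Diet, dose, duration, sex and age, the group that set the pair-fed ration, and whether each sample is 1 animal are not given in the sources. P-values therefore measure only the spread between these samples, which may be technical.

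Matrix metalloproteases are zinc enzymes that cut collagens, laminins and other matrix proteins. They are made as inactive precursors and are secreted or held at the cell surface, and the 4 TIMPs block their active site. ADAM proteases are membrane proteins; those with a zinc site release the outer part of growth factors, cytokines and receptors, a step called shedding. ADAMTS proteases are secreted and bind the matrix, where one branch cuts large proteoglycans such as versican and aggrecan and another trims procollagens. In fat these enzymes are known for remodelling of matrix and vessels as the tissue expands or shrinks.

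Libraries differed in ways that touched these genes. The value of 1 read, taken as the commonest low value in each library, ran from 0.890 in Vehicle 1 to 1.68 in LAGIPRA 4 on the deposited log2 scale. On the linear scale, with the offset of 1 taken off, these were 0.853 and 2.19. A level of 2.86 equalled about 2.85 reads in LAGIPRA 4 and 7.34 reads in Vehicle 1. The libraries TZP 3 to TZP 6 stood apart in their slope of expression on transcript length, between -0.152 and -0.064 log2 per doubling of length, against 0.014 and 0.017 in TZP 1 and TZP 2 and 0.017 to 0.058 in Vehicle. Skeletal muscle markers were close to absent in TZP 3, PairFedVehicle 5 and Vehicle 1. The summed log2 level of 10 brown adipocyte markers ran from 16.3 to 16.9 in TZP, from 16.6 to 16.7 in LAGIPRA and from 16.5 to 16.8 in PairFedVehicle, against 16.1 to 16.4 in Vehicle. Against Vehicle 2 of the 10 rose in TZP (Ucp1 and Cidea), 4 in LAGIPRA and 4 in PairFedVehicle, and none fell. The shares of all genes called higher were 11.7%, 8.72% and 4.96%. The part of the brown adipocyte markers in the results on proteases was not tested. In bulk tissue, fewer cells of a type and less RNA per cell cannot be told apart.

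The sequences shown next are promoters of 6 genes on which the results turn, 250 bases before to 50 bases after the transcription start in the RefSeq table of build GRCm38.p6, 5′ to 3′ on the strand of the gene. Capitals mark matches on either strand to the AP-1 motif TGANTCA or to TGACG, the core that binds factors of the cyclic AMP response. Of 43 members, 27 had an entry in the table, with 31 promoters. AP-1 was found in 3 of these 31 promoters (Adam19, Mmp3 and Mmp12) and in 7.81% of 32851 promoters of that length. TGACG was found in 5 of them (Adam10, Adamts1, Adamts3, Adamts9 and Timp1) and in 20.8% of all. The whole cyclic AMP response element TGACGTCA, which contains TGACG, was found in 0 of the 31 and in 1.79% of all.
Adamts1, chr16:85803064-85803363, minus strand: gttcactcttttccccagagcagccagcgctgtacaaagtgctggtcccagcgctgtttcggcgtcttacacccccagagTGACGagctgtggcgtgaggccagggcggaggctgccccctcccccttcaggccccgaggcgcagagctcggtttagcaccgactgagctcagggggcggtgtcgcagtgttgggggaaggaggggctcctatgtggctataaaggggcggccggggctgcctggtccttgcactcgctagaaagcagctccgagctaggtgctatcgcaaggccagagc
Adam19, 1 of 3 starts, chr11:46055734-46056033, plus strand: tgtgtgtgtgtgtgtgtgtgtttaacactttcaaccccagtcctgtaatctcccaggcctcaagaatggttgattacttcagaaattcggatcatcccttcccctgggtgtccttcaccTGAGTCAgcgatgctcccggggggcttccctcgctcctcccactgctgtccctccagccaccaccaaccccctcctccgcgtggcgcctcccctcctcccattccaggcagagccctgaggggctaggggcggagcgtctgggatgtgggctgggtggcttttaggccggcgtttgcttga
Timp1, chrX:20869916-20870215, plus strand: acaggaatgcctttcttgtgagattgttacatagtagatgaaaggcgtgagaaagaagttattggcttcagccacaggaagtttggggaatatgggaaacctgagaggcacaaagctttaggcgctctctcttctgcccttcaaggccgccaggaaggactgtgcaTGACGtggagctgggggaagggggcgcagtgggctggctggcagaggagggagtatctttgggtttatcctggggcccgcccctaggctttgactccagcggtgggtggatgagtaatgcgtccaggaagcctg
Timp4, chr6:115252156-115252455, minus strand: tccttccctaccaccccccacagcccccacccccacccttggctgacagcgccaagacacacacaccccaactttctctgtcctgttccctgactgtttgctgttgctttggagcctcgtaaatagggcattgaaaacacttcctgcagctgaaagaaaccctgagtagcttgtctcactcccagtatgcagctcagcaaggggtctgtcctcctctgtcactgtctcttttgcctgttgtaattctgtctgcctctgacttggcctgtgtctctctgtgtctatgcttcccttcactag
Mmp11, chr10:75932453-75932752, minus strand: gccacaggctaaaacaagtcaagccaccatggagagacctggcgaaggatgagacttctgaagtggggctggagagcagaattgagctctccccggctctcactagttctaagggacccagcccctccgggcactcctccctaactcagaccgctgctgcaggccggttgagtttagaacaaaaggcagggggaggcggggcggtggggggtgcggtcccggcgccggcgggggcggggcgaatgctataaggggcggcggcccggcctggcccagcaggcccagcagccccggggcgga
Mmp15, chr8:95352046-95352345, plus strand: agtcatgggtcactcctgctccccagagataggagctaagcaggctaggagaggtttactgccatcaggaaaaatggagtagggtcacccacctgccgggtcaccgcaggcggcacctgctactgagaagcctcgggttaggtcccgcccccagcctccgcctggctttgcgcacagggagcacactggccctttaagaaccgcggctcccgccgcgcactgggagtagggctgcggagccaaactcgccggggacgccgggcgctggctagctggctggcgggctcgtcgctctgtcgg
The AP-1 match in Adam19 starts at position -131 relative to the transcription start. A match describes the letters of the window and nothing about binding in these samples.

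Per kilobase of transcript, on a log2 scale, Mmp24 had the highest level at 7.78, followed by Timp3 at 7.21, Timp2 at 6.78, Mmp21 at 6.65, Mmp2 at 6.34 and Timp1 at 6.26. The lowest were Adamts7 at 0.40, Mmp25 at 0.85 and Adamts16 at 0.96. Mmp24, a membrane-type protease, ran from 9.50 to 10.24 on the deposited scale over the 24 samples. It shares 13.6% of its exonic bases with BC029722 on the opposite strand, which ran from 9.30 to 10.24. Without knowledge of strand in the counting, reads of the 2 genes from the shared bases cannot be told apart.

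In TZP against Vehicle, 6 ADAMTS proteases, most of them cutters of proteoglycans, 3 shedding ADAM proteases and the inhibitor Timp3 fell, and the inhibitor Timp4 rose. With limma, 11 of 43 members (25.6%) passed an adjusted p of 0.05, beside 22.1% of all 17250 genes tested, a share near the background. By direction, 10 members (23.3%) were lower, beside 10.3% of all genes, and 1 member (2.33%) was higher, beside 11.7%. The median log2 fold change of the members was -0.18, beside 0.04 for all genes. By family the median was -0.50 for the 11 Adamts genes, -0.40 for the 11 Adam genes, -0.39 for the 4 Timp genes and -0.05 for the 15 Mmp genes. The sign of the Mmp median turned with 1-read values as the covariate, to 0.13, and the other 3 medians stayed below 0 in every alternative computed.

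Transcript length moved with these calls. The members have a median transcript length of 3100 bases against 1841 bases for all genes tested, and the members called lower in TZP have a median of 4148 bases. Over all genes, those called lower in TZP have a median of 3852 bases and those called higher 1302 bases. With the length slope of each library as a covariate, 1 member (Adamts4) was called in TZP against Vehicle, beside 1.04% of all genes. With TZP 1 and TZP 2 as the only TZP libraries, 3 members (Adamts4, Adamts2 and Timp4) were called, beside 4.74% of all genes. After the length trend of each library was taken off its values, 13 members were called, 9 of them among the 11. This stands beside 22.2% of all genes in that fit. Whether transcript length or RNA quality has a part in the fall was not tested further.

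**Figure D1:**
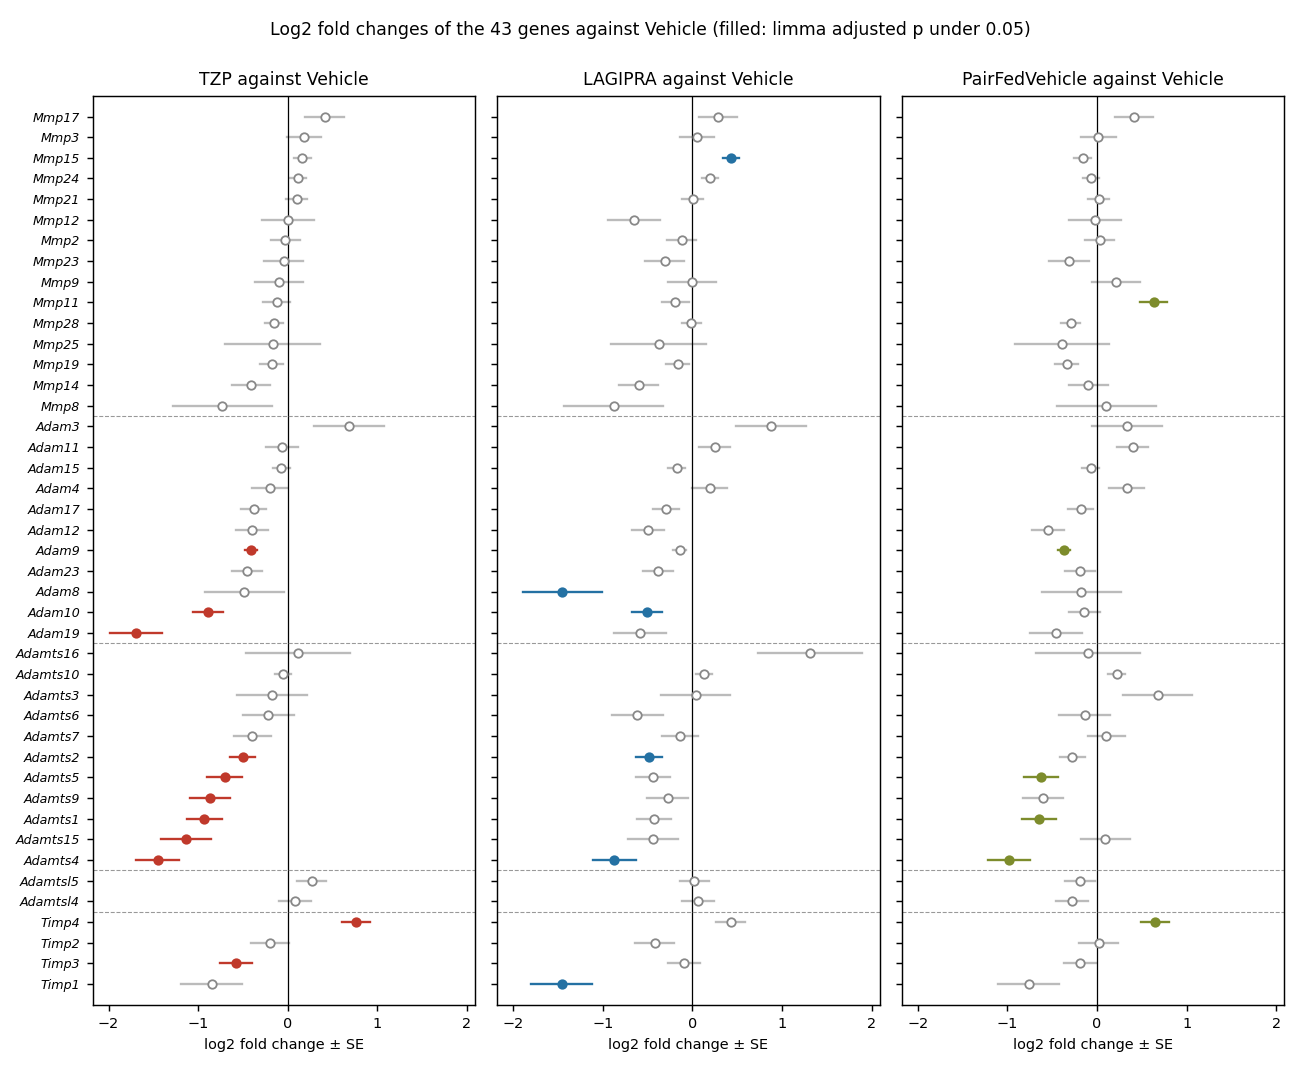
Log2 fold changes of the 43 genes (horizontal axis, bars ± SE) in TZP, LAGIPRA and PairFedVehicle against Vehicle, with n = 6 samples each, grouped by family and ordered by the change in TZP. Filled points passed a limma adjusted p of 0.05: 11 in TZP, 6 in LAGIPRA and 6 in PairFedVehicle, and in TZP none of the 15 Mmp genes.

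In LAGIPRA against Vehicle, Timp1, Adam8, Adam10, Adamts2 and Adamts4 fell and Mmp15 rose. These 6 of 43 members (14%) stand beside 13.7% of all genes, a share at the background. The count depended on single libraries: it was 2 without Vehicle 3 or LAGIPRA 5, 3 without Vehicle 1, Vehicle 6, LAGIPRA 4 or LAGIPRA 6, and 12 without Vehicle 5. When 1-read values entered as a covariate, 0 members passed in limma, beside 0.261% of all genes. The 5 that fell stand beside 5.03% of all genes called lower, and the 1 that rose beside 8.72% called higher. In PairFedVehicle against Vehicle, Adam9, Adamts1, Adamts4 and Adamts5 fell and Mmp11 and Timp4 rose. These 6 of 43 members stand beside 8.61% of all genes, the 4 that fell beside 3.65% called lower and the 2 that rose beside 4.96% called higher. The median log2 fold change of the members was -0.18 in LAGIPRA and -0.13 in PairFedVehicle, beside 0.03 and 0.02 for all genes. These comparisons share the Vehicle samples.

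Groups that did not overlap were counted in the same way. In TZP against Vehicle 5 members lay wholly below (2.05% of all genes) and 0 wholly above (3.4%). In LAGIPRA against Vehicle 1 member lay wholly below (1.49%) and 1 wholly above (3.16%). In PairFedVehicle against Vehicle 4 members lay wholly below (2.35%) and 0 wholly above (2.41%). Against PairFedVehicle, 1 member lay wholly below in TZP (1.76%) and 0 wholly above (3.17%), and in LAGIPRA 0 lay wholly below (2.16%) and 2 wholly above (3.7%). In TZP against LAGIPRA 1 member, Mmp15, lay wholly below (0.458%) and 0 wholly above (0.354%).

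Of the 7 listed ADAMTS proteoglycanases, Adamts8 and Adamts20 were below the mean required, and all 5 tested (Adamts1, Adamts4, Adamts5, Adamts9 and Adamts15) fell in TZP against Vehicle. In PairFedVehicle 3 of the 5 fell (Adamts1, Adamts4 and Adamts5), and in LAGIPRA 1 of the 5 fell (Adamts4). Of all genes tested, 10.3% were called lower in TZP, 3.65% in PairFedVehicle and 5.03% in LAGIPRA, each against Vehicle. Adamts4, known as an aggrecan-cutting enzyme, had a lowest, median and highest value of 2.20, 3.08 and 3.72 in TZP, 3.16, 3.69 and 3.80 in LAGIPRA, 3.17, 3.53 and 3.80 in PairFedVehicle, and 3.66, 4.56 and 5.23 in Vehicle. Only the lowest Vehicle sample lay within the range of the other 3 groups. These medians equal about 5.34 reads in TZP, 7.61 in LAGIPRA, 9.05 in PairFedVehicle and 23.6 in Vehicle, so Adamts4 was counted from few reads.

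Adamts4 was 2.74-fold lower in TZP (log2 fold change -1.45, SE 0.24, limma adjusted p = 0.000785), 1.83-fold lower in LAGIPRA (-0.87, SE 0.24, adjusted p = 0.0213) and 1.98-fold lower in PairFedVehicle (-0.98, SE 0.24, adjusted p = 0.0111), each against Vehicle. The calls in TZP and PairFedVehicle held in every alternative computed. With TZP 1 and TZP 2 alone the change was -1.52 (adjusted p = 0.011). The LAGIPRA call ended without Vehicle 3, Vehicle 6 or LAGIPRA 5, with adjusted p between 0.0564 and 0.0609.

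Adamts1, a secreted protease of versican known to be inducible, ran from 5.18 to 6.26 in TZP with a median of 5.49, from 5.64 to 6.47 in LAGIPRA with a median of 6.11, from 5.48 to 6.25 in PairFedVehicle with a median of 5.87, and from 6.29 to 6.97 in Vehicle with a median of 6.44. All TZP and all PairFedVehicle samples lay below all Vehicle samples, and LAGIPRA overlapped Vehicle. On the log2 scale the change was -0.93 (SE 0.19, adjusted p = 0.00239) in TZP and -0.65 (SE 0.19, adjusted p = 0.0376) in PairFedVehicle. In LAGIPRA it was -0.43 (adjusted p = 0.129), which did not pass. With TZP 1 and TZP 2 alone the change was -0.40 (adjusted p = 0.269). The PairFedVehicle call ended without any one of Vehicle 2, 5 or 6 or PairFedVehicle 1, 2, 3 or 5, with adjusted p between 0.0616 and 0.0899.

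Adamts5, the other main aggrecan-cutting enzyme, ran from 4.88 to 5.79 in TZP (median 5.56), from 5.30 to 6.47 in LAGIPRA (median 5.56), from 5.18 to 5.77 in PairFedVehicle (median 5.61) and from 5.82 to 6.69 in Vehicle (median 6.12). The TZP and PairFedVehicle ranges lay below that of Vehicle, and 2 LAGIPRA samples lay within it. Its log2 fold change was -0.71 (SE 0.19, adjusted p = 0.0114) in TZP and -0.62 (SE 0.19, adjusted p = 0.0429) in PairFedVehicle. With TZP 1 and TZP 2 alone it was -0.54 (adjusted p = 0.188), and after length correction -0.42 (adjusted p = 0.0931). The PairFedVehicle call ended without any one of 10 of its 12 libraries (all but Vehicle 6 and PairFedVehicle 2), with adjusted p between 0.0524 and 0.111.

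Adamts9, a versican-cutting protease, ran from 2.60 to 4.41 in TZP (median 3.96), from 3.96 to 4.74 in LAGIPRA (median 4.41), from 3.72 to 4.28 in PairFedVehicle (median 4.09) and from 4.44 to 5.04 in Vehicle (median 4.63). The TZP and PairFedVehicle ranges lay below that of Vehicle. The log2 fold change was -0.87 (SE 0.22, adjusted p = 0.00877) in TZP and -0.60 (SE 0.22, adjusted p = 0.10) in PairFedVehicle, where it did not pass. TZP 1 and TZP 2 were at 4.35 and 4.41, next to the lowest Vehicle value, and with these alone the change was -0.29 (adjusted p = 0.342). When the length slope entered the model, the change in TZP was -0.04 (adjusted p = 0.947). Adamts9 shares 12% of its exonic bases with A730049H05Rik and Gm15737 on the opposite strand.

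Adamts15 ran from 2.22 to 3.47 in TZP (median 2.82), from 3.05 to 3.86 in LAGIPRA (median 3.57), from 3.63 to 4.61 in PairFedVehicle (median 4.0) and from 2.96 to 4.63 in Vehicle (median 4.28). It was the proteoglycanase that differed between TZP and PairFedVehicle, where the ranges did not overlap. On the log2 scale the change was -1.23 against PairFedVehicle (SE 0.28, adjusted p = 0.00439) and -1.14 against Vehicle (SE 0.28, adjusted p = 0.00643). Without TZP 3 to TZP 6 these were -0.79 (adjusted p = 0.202) and -0.70 (adjusted p = 0.22). The 3 lowest values, 2.22, 2.35 and 2.39, were in TZP 5, TZP 6 and TZP 4, and the fewest reads were about 2.31.

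**Figure D2:**
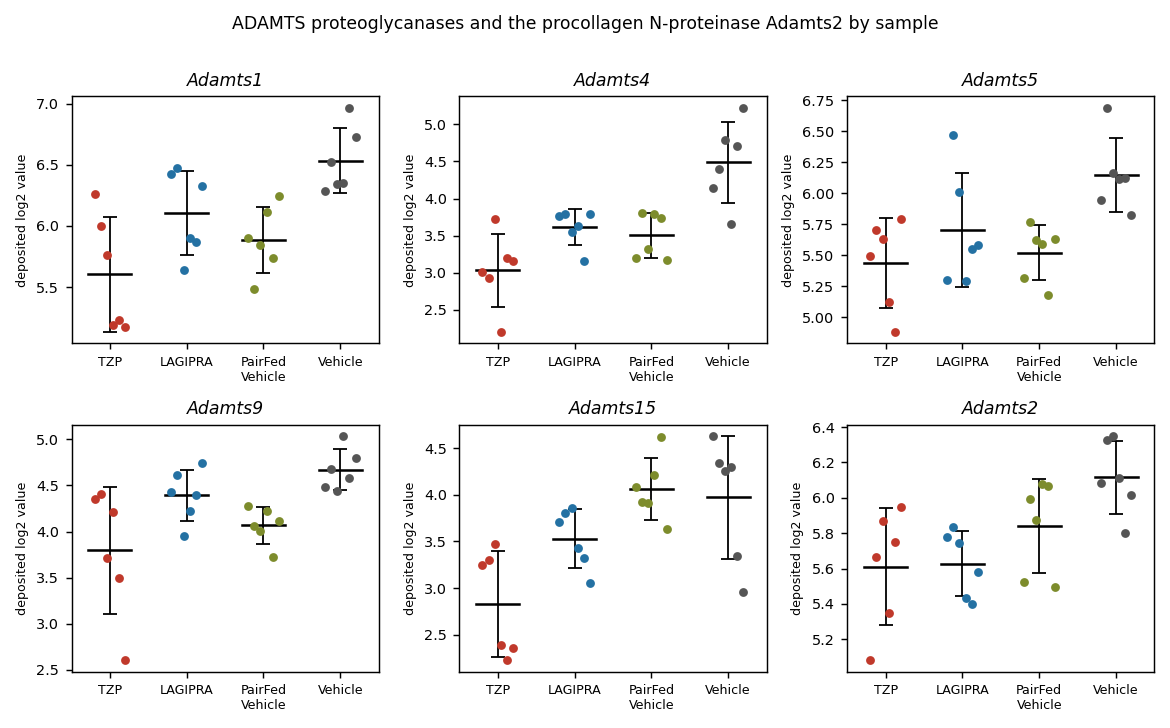
Deposited log2 values of 5 ADAMTS proteoglycanases and of Adamts2 in each of 24 samples by group, with black lines at the mean ± SD (n = 6 each). The TZP samples of Adamts1, Adamts5 and Adamts9 all lie below the Vehicle samples, as do the PairFedVehicle samples of the same 3 genes.

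Adamts2, which trims the amino end of procollagens, ran from 5.08 to 5.95 in TZP (median 5.71), from 5.40 to 5.83 in LAGIPRA (median 5.66), from 5.50 to 6.08 in PairFedVehicle (median 5.93) and from 5.80 to 6.35 in Vehicle (median 6.10). All groups overlapped Vehicle. Its log2 fold change was -0.50 in TZP (SE 0.14, adjusted p = 0.0147) and -0.49 in LAGIPRA (SE 0.14, adjusted p = 0.0289). In TZP 1 and TZP 2 alone it was -0.74 (adjusted p = 0.0316). After length correction the TZP value was -0.28 (adjusted p = 0.20). The LAGIPRA call ended without any one of Vehicle 1, 2 or 3 or LAGIPRA 4, 5 or 6, with adjusted p between 0.0528 and 0.0765. Its relative Adamts3 passed in none of the 6 comparisons. Among the other Adamts genes, Adamts10 was lower in TZP than in PairFedVehicle (4.79 against 5.01 by median, log2 fold change -0.27, SE 0.09, adjusted p = 0.0454). That call ended without any one of TZP 4, 5 or 6 or PairFedVehicle 1 to 5, with adjusted p between 0.0538 and 0.119, and was -0.18 (adjusted p = 0.378) with TZP 1 and TZP 2 alone. The low-level genes Adamts7 and Adamts16 and the 2 Adamtsl genes passed in no comparison.

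Of 8 listed ADAM proteases with a zinc site, 7 were tested. Against Vehicle, 3 of them fell in TZP (Adam19, Adam9 and Adam10), 2 in LAGIPRA (Adam8 and Adam10) and 1 in PairFedVehicle (Adam9). These counts stand beside 10.3%, 5.03% and 3.65% of all genes called lower in the same comparisons. Adam10, the main sheddase of Notch receptors, ran from 5.29 to 6.13 in TZP (median 5.71), from 5.87 to 6.40 in LAGIPRA (median 6.06), from 6.12 to 6.76 in PairFedVehicle (median 6.47) and from 6.08 to 7.12 in Vehicle (median 6.57). The highest TZP sample reached into the lower end of the Vehicle and PairFedVehicle ranges, and the LAGIPRA median lay between. The log2 fold change in TZP was -0.89 against Vehicle (SE 0.17, adjusted p = 0.00149) and -0.75 against PairFedVehicle (SE 0.17, adjusted p = 0.00454). Without TZP 3 to TZP 6 these were -0.53 (adjusted p = 0.136) and -0.39 (adjusted p = 0.301). In LAGIPRA against Vehicle it was -0.50 (SE 0.17, adjusted p = 0.0489), a call that ended without any one of 10 of the 12 libraries (all but Vehicle 5 and LAGIPRA 2), with adjusted p between 0.054 and 0.133.

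Adam19, a sheddase known for cutting neuregulins, had the largest fall among the members in TZP against Vehicle. It ran from 1.64 to 3.77 in TZP (median 2.55), from 3.45 to 4.01 in LAGIPRA (median 3.80), from 3.37 to 4.57 in PairFedVehicle (median 3.78) and from 3.85 to 4.58 in Vehicle (median 4.34). TZP lay wholly below Vehicle. The change was 3.23-fold (log2 fold change -1.69, SE 0.29, adjusted p = 0.000946) against Vehicle and -1.24 on the log2 scale against PairFedVehicle (SE 0.29, adjusted p = 0.00624). TZP 1 and TZP 2 were at 3.43 and 3.77 and TZP 3 to TZP 6 between 1.64 and 3.03. In TZP 1 and TZP 2 alone the changes were -0.73 (adjusted p = 0.0912) and -0.27 (adjusted p = 0.569). The fewest reads in a library were about 1.74. Adam19 shares 10.1% of its exonic bases with the antisense genes Gm16033 and Gm16034.

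Adam9, a broadly expressed sheddase, ran from 6.62 to 7.16 in TZP (median 6.86), from 7.07 to 7.26 in LAGIPRA (median 7.11), from 6.82 to 7.06 in PairFedVehicle (median 6.93) and from 7.17 to 7.42 in Vehicle (median 7.30). TZP and PairFedVehicle lay wholly below Vehicle, and LAGIPRA lay wholly above PairFedVehicle. On the log2 scale the change against Vehicle was -0.41 in TZP (SE 0.07, adjusted p = 0.00102) and -0.37 in PairFedVehicle (SE 0.07, adjusted p = 0.00246). The PairFedVehicle call held in every alternative computed, and in TZP the change was -0.21 with TZP 1 and TZP 2 alone (adjusted p = 0.12). LAGIPRA exceeded PairFedVehicle by 0.23 (SE 0.07, adjusted p = 0.0435). That call was lost without any one of 10 of the 12 libraries (all but LAGIPRA 1 and PairFedVehicle 5), with adjusted p between 0.0527 and 0.101.

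**Figure D3:**
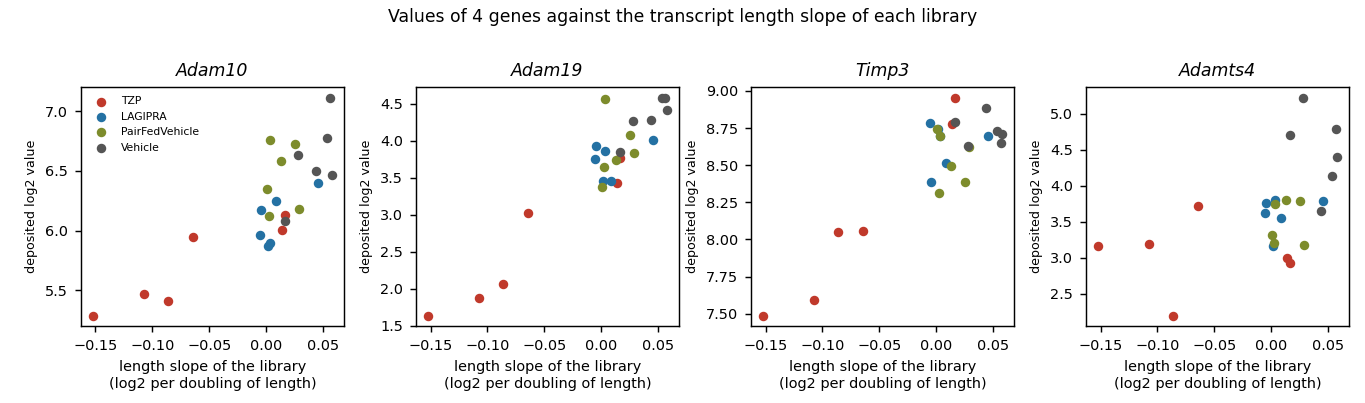
Deposited log2 values of Adam10, Adam19, Timp3 and Adamts4 (vertical axes) against the transcript length slope of each of the 24 libraries (horizontal axis), coloured by group. The 4 TZP libraries with the lowest slopes, -0.152 to -0.064, hold the lowest Adam19 and Timp3 values, while for Adamts4 the TZP libraries at 0.014 and 0.017 lie among them.

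Adam8, a sheddase of leukocytes, ran from 5.59 to 7.55 in TZP (median 6.56), from 4.95 to 6.79 in LAGIPRA (median 5.59), from 5.67 to 7.96 in PairFedVehicle (median 7.17) and from 5.96 to 8.17 in Vehicle (median 7.14). All groups overlapped. In LAGIPRA against Vehicle its log2 fold change was -1.45 (SE 0.44, adjusted p = 0.0336). The call ended without any one of Vehicle 1, 3 or 6 or LAGIPRA 4, 5 or 6, with adjusted p between 0.07 and 0.0916, and with 1-read values as the covariate (-0.70, adjusted p = 0.393). Macrophage markers moved with it: 5 of 10 were lower in LAGIPRA than in Vehicle (C1qa, C1qb, Cd68, Fcgr1 and Mrc1), beside 5.03% of all genes. The summed log2 level of the 10 ran from 12.2 to 13.5 in LAGIPRA and from 12.8 to 14.0 in Vehicle, with no marker at 0. The part of macrophage content in the Adam8 and Timp1 results was not tested.

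Adam17, which sheds tumour necrosis factor, Adam12 and Adam15 passed in no comparison. Adam17 averaged 5.99 ± 0.22 in TZP and 6.37 ± 0.27 in Vehicle (SD, n = 6 each; log2 fold change -0.38, adjusted p = 0.0536). Adam12 averaged 4.27 ± 0.16 in PairFedVehicle and 4.82 ± 0.29 in Vehicle (SD, n = 6 each; -0.55, adjusted p = 0.0574). The 4 other Adam genes tested (Adam3, Adam4, Adam11 and Adam23) passed in no comparison.

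The TIMPs moved in both directions, with Timp4 higher and Timp3 lower in TZP, Timp1 lower in LAGIPRA and Timp4 higher in PairFedVehicle, each against Vehicle. Timp4, an inhibitor known for its abundance in heart and fat, was higher in TZP and in PairFedVehicle than in Vehicle. It ran from 6.60 to 7.13 in TZP (median 7.06), from 6.35 to 6.93 in LAGIPRA (median 6.64), from 6.58 to 7.05 in PairFedVehicle (median 6.84) and from 5.55 to 6.77 in Vehicle (median 6.16). The ranges overlapped at the top of Vehicle. The log2 fold change was 0.76 in TZP (SE 0.16, adjusted p = 0.0025) and 0.64 in PairFedVehicle (SE 0.16, adjusted p = 0.0123). In LAGIPRA it was 0.43 (SE 0.16, adjusted p = 0.0709). Without TZP 3 to TZP 6 the TZP value was 0.85 (adjusted p = 0.0422), and the PairFedVehicle call held in every alternative computed. Timp4 shares 1.53% of its exonic bases with Syn2 on the opposite strand, and Syn2 was also higher in TZP (5.07 in TZP, 4.40 in Vehicle, log2 fold change 0.67, adjusted p = 0.0255).

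Timp1, an inducible inhibitor that is secreted, was 2.75-fold lower in LAGIPRA than in Vehicle. It ran from 4.94 to 6.61 in TZP (median 5.71), from 4.08 to 5.77 in LAGIPRA (median 5.26), from 5.14 to 6.72 in PairFedVehicle (median 5.64) and from 5.91 to 7.38 in Vehicle (median 6.62). LAGIPRA lay wholly below Vehicle, and the other groups overlapped it. On the log2 scale the change was -1.46 (SE 0.34, adjusted p = 0.0117), and the call held without each library in turn and ended with 1-read values as the covariate (-1.11, adjusted p = 0.149). The change did not pass in TZP (-0.85, SE 0.34, adjusted p = 0.0762) or in PairFedVehicle (-0.76, SE 0.34, adjusted p = 0.178). The difference between TZP and LAGIPRA, 0.61 (SE 0.34, adjusted p = 0.384), did not pass either.

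Timp3, which binds to the matrix and also inhibits Adam17, ran from 7.49 to 8.96 in TZP (median 8.05), from 8.39 to 8.79 in LAGIPRA (median 8.70), from 8.31 to 8.74 in PairFedVehicle (median 8.56) and from 8.63 to 8.89 in Vehicle (median 8.72). Its log2 fold change in TZP was -0.58 (SE 0.18, adjusted p = 0.0236). TZP 1 and TZP 2 were at 8.78 and 8.96, within or above the Vehicle range, and TZP 3 to TZP 6 lay between 7.49 and 8.06. The sign turned with TZP 1 and TZP 2 alone (0.13, adjusted p = 0.491) and when the length slope entered the model (0.20, adjusted p = 0.498). The call ended without TZP 5 or TZP 6, with adjusted p between 0.0632 and 0.0672. Timp3 shares 21.3% of its exonic bases with Syn3 on the opposite strand, which averaged 4.53 in TZP and 4.42 in Vehicle. Timp2, which takes part in the activation of Mmp2, passed in no comparison and averaged 7.83 ± 0.39 in TZP and 8.03 ± 0.42 in Vehicle (SD, n = 6 each).

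**Figure D4:**
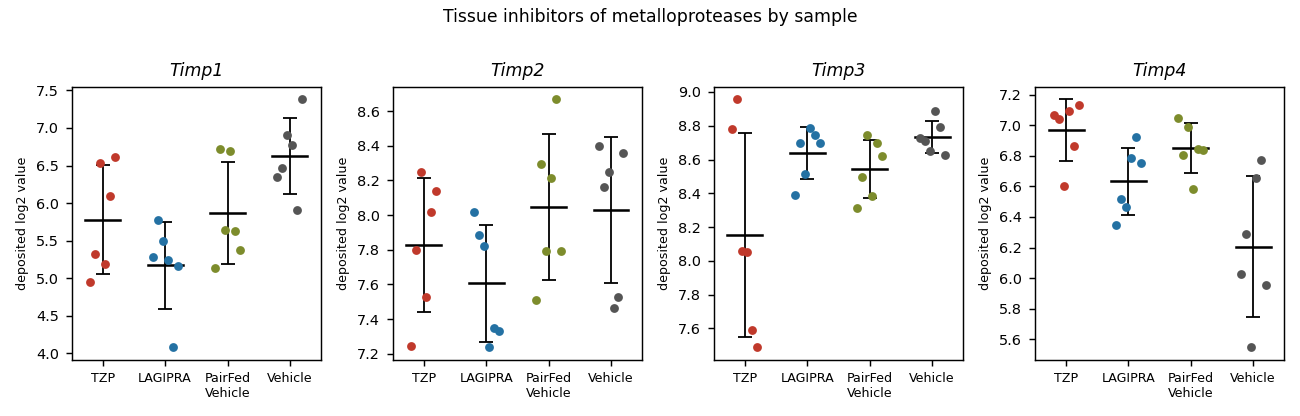
Deposited log2 values of the 4 TIMPs in each of 24 samples by group, with black lines at the mean ± SD (n = 6 each). Timp1 is lowest in LAGIPRA (median 5.26), Timp4 is higher in TZP and PairFedVehicle (medians 7.06 and 6.84) than in Vehicle (6.16), and 4 of 6 TZP values of Timp3 lie below all others.

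Of the 15 Mmp genes, Mmp11 and Mmp15 passed in at least 1 comparison. Mmp11, stromelysin 3, known from stromal cells around tumours and as a protease that acts on fat cells, was higher in PairFedVehicle than in each of the other groups. It ran from 4.14 to 4.72 in TZP (median 4.46), from 4.11 to 4.91 in LAGIPRA (median 4.30), from 4.67 to 5.62 in PairFedVehicle (median 5.23) and from 4.45 to 4.80 in Vehicle (median 4.54). The lowest PairFedVehicle sample lay within the other ranges. The log2 fold change was -0.76 for TZP against PairFedVehicle (SE 0.15, adjusted p = 0.00171), -0.82 for LAGIPRA against PairFedVehicle (SE 0.15, adjusted p = 0.000836) and 0.63 for PairFedVehicle against Vehicle (SE 0.15, adjusted p = 0.00962). All 3 calls held in every alternative computed, and these comparisons share the PairFedVehicle samples. TZP and LAGIPRA differed from Vehicle by -0.13 and -0.19 (SE 0.15 each, adjusted p = 0.586 and 0.40). Mmp11 shares 5.58% of its exonic bases with Chchd10 on the opposite strand, a far more abundant gene that averaged 13.7 in PairFedVehicle and 13.6 in Vehicle (adjusted p = 0.748).

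Mmp15, a membrane-type protease, was higher in LAGIPRA than in PairFedVehicle and Vehicle. It ran from 6.53 to 6.70 in TZP (median 6.57), from 6.80 to 7.03 in LAGIPRA (median 6.83), from 6.13 to 6.66 in PairFedVehicle (median 6.23) and from 6.11 to 6.77 in Vehicle (median 6.41). All LAGIPRA samples lay above all samples of the other 3 groups. LAGIPRA exceeded PairFedVehicle by 0.59 (SE 0.09, adjusted p = 0.000265), which held in every alternative computed, and Vehicle by 0.43 (SE 0.09, adjusted p = 0.00936), which ended with 1-read values as the covariate (0.40, adjusted p = 0.101). TZP exceeded PairFedVehicle by 0.32 (SE 0.09, adjusted p = 0.0246). This call ended without TZP 5 or PairFedVehicle 2, 5 or 6, with adjusted p between 0.0512 and 0.0571, and was 0.27 (adjusted p = 0.283) with TZP 1 and TZP 2 alone. TZP minus LAGIPRA was -0.27 (SE 0.09, adjusted p = 0.139).

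**Figure D5:**
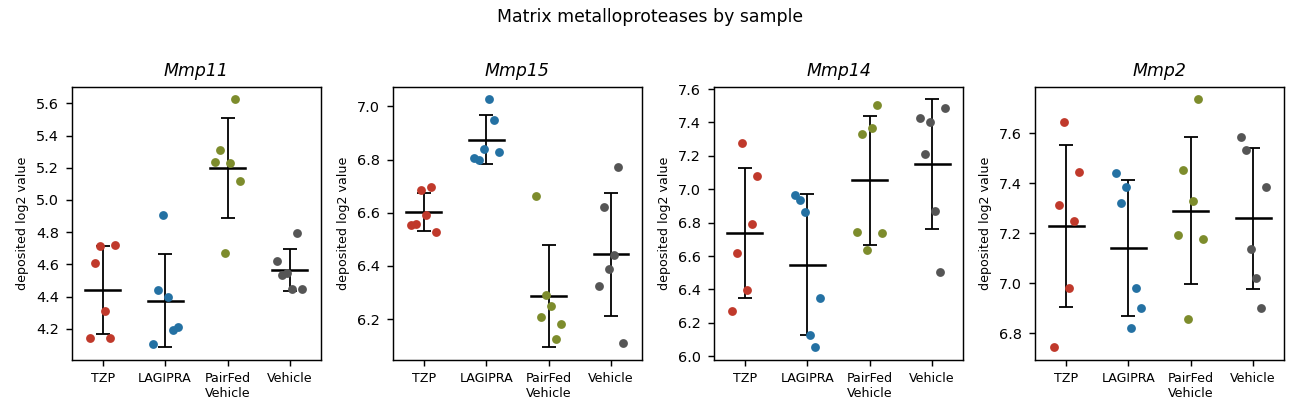
Deposited log2 values of Mmp11, Mmp15, Mmp14 and Mmp2 in each of 24 samples by group, with black lines at the mean ± SD (n = 6 each). PairFedVehicle is highest for Mmp11 (median 5.23), LAGIPRA lies above all other samples for Mmp15 (6.80 to 7.03), and the 4 groups overlap for Mmp14 and Mmp2.

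The other Mmp genes passed in no comparison. Mmp14, the membrane-type protease that activates Mmp2, averaged 6.74 ± 0.39 in TZP, 6.55 ± 0.42 in LAGIPRA, 7.05 ± 0.39 in PairFedVehicle and 7.15 ± 0.39 in Vehicle (SD, n = 6 each). Its difference from Vehicle was -0.60 in LAGIPRA (SE 0.22, adjusted p = 0.0642). Mmp2, a gelatinase, averaged 7.23 ± 0.32 in TZP, 7.14 ± 0.27 in LAGIPRA, 7.29 ± 0.29 in PairFedVehicle and 7.26 ± 0.28 in Vehicle (SD, n = 6 each), with differences from Vehicle between -0.12 and 0.03 (SE 0.16). Mmp19 averaged 7.02 ± 0.29 in PairFedVehicle and 7.36 ± 0.31 in Vehicle (SD, n = 6 each; -0.34, adjusted p = 0.107), and shares 28.3% of its exonic bases with Gm47093 and Tmem198b on the opposite strand. Mmp8, a collagenase of neutrophils, and Mmp25, of leukocytes, lay near the lower limit, at about 0.474 and 0.425 reads in their lowest libraries.

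Against PairFedVehicle, 6 of 43 members passed in TZP beside 16.4% of all genes, with Mmp11, Adam10, Adam19, Adamts10 and Adamts15 lower (8.02% of all genes) and Mmp15 higher (8.39%). In TZP 1 and TZP 2 alone 1 member (Mmp11) was called, beside 5.98% of all genes. In LAGIPRA 3 of 43 passed beside 11.9% of all genes, with Mmp15 and Adam9 higher (7.3%) and Mmp11 lower (4.56%). Between TZP and LAGIPRA, 0 of 43 members passed with limma, beside 0.4% of all genes, and 12 had an unadjusted p under 0.05, beside 16.4% of all genes. The smallest adjusted p in that comparison were 0.0651 for Adam19 (log2 fold change -1.11, SE 0.29) and 0.0658 for Adam9 (-0.27, SE 0.07). The count was 4 without TZP 1 (Adam19, Adam9, Adamts1 and Timp3), 3 without TZP 2 and 3 with sample weights (Adam19, Adam9 and Timp3 in both). With sample weights 6.21% of all genes were called.

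Markers of other cell types were compared beside these results, with calls from the main fit alone. The marker changes with the length slope or with TZP 1 and TZP 2 alone are not reported here. With those settings 1.04% and 4.74% of all genes were called in TZP against Vehicle, and 22.1% in the main fit. Of all genes tested, 10.3% were called lower and 11.7% higher in TZP against Vehicle. The shares were 3.65% and 4.96% in PairFedVehicle against Vehicle, and 8.02% and 8.39% in TZP against PairFedVehicle. Endothelial markers moved with the fall of the ADAMTS genes in TZP: 5 of 9 were lower in TZP than in Vehicle (Cldn5, Cdh5, Tek, Pecam1 and Kdr), with a summed log2 level from 11.5 to 11.99 in TZP and from 12.2 to 12.7 in Vehicle and no marker at 0. In PairFedVehicle, where Adamts1, Adamts4 and Adamts5 fell, 1 of the 9 was lower than in Vehicle (Cldn5) and 2 were higher (Tie1 and Emcn), and the summed log2 level ran from 11.9 to 12.2. In TZP against PairFedVehicle, the comparison in which Adam10, Adam19 and Adamts15 fell, 6 of the 9 were lower (Tek, Cdh5, Tie1, Esam, Kdr and Pecam1). Of 8 pericyte and smooth muscle markers, Pdgfrb, Rgs5 and Cspg4 were lower and Cnn1 higher in TZP than in Vehicle. Against PairFedVehicle, Pdgfrb and Rgs5 were lower and Cnn1 higher in TZP, and none of the 8 passed in PairFedVehicle against Vehicle. Of 8 fibroblast markers 1 (Pdgfra) was lower in TZP than in Vehicle, and none was called in LAGIPRA or PairFedVehicle against Vehicle. The median log2 fold change of the 8 against Vehicle was -0.41 in TZP, -0.46 in LAGIPRA and -0.37 in PairFedVehicle. Of the 8 neutrophil markers 4 had a row in the table. Their summed log2 level ran from 7.16 to 7.81 in PairFedVehicle, where Mmp11 was highest, against 5.73 to 6.91 in Vehicle. Of these 4 only 1, S100a9, was called in PairFedVehicle against Vehicle (6.99 against 5.71). The lymphocyte and mesothelial markers were all below the level tested. The part of cell content in these results was not tested.

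Genes that act around these proteases were compared in lists by role, with values from the main fit alone. Their changes with the length slope or with TZP 1 and TZP 2 alone are not reported here. With those settings 1.04% and 4.74% of all genes were called in TZP against Vehicle. Of 16 tested activators, inhibitors and clearance receptors, Lrp1, the endocytic receptor that clears many of these proteases, and Reck, a membrane inhibitor, fell in TZP against Vehicle, and the proprotein convertase Pcsk7 rose. These 3 of 16 stand beside 22.1% of all genes tested, so the share was not above the background. Lrp1 averaged 8.87 in TZP and 9.77 in Vehicle (log2 fold change -0.90, SE 0.14, adjusted p = 0.000644), and it also fell in LAGIPRA (9.22, -0.55, adjusted p = 0.0177). Pcolce, which enhances procollagen processing, was lower in PairFedVehicle (8.87) than in Vehicle (9.66; -0.79, SE 0.12, adjusted p = 0.000174). Furin, which activates many of these precursors, was higher in TZP (6.36) and LAGIPRA (6.31) than in PairFedVehicle (6.07; adjusted p = 0.00562 and 0.0195).

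Plau, the urokinase that activates plasminogen, whose plasmin in turn activates several Mmp precursors, fell in LAGIPRA (5.84 in LAGIPRA, 6.95 in Vehicle, log2 fold change -1.11, SE 0.37, adjusted p = 0.0499). Of 13 tested proteoglycan substrates, Hspg2 (perlecan) and Ogn fell in TZP against Vehicle, Sdc3 in LAGIPRA, and Vcan (versican) and Ncan in PairFedVehicle. These counts of 2, 1 and 2 of 13 stand beside 10.3%, 5.03% and 3.65% of all genes lower in the same comparisons, and with so few genes nothing is read from the shares. Vcan averaged 2.79 in PairFedVehicle and 3.52 in Vehicle (-0.73, SE 0.21, adjusted p = 0.0325).

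Of 11 tested ligands and receptors shed by ADAM proteases, Notch1, Kitl and Il6ra fell and Nrg4, a neuregulin of brown fat, rose in TZP against Vehicle, which is 4 of 11 beside 22.1% of all genes. Notch1, which Adam10 cuts, averaged 3.38 in TZP and 5.71 in Vehicle (-2.32, SE 0.42, adjusted p = 0.00114). That SE stands beside a median of 0.15 over all genes, and the Notch1 change without TZP 3 to TZP 6 is not reported here. Nrg4 also rose in LAGIPRA (7.71 in LAGIPRA, 7.27 in Vehicle, 0.43, SE 0.10, adjusted p = 0.0112), where Cx3cl1 fell, which is 2 of 11 beside 13.7% of all genes, and none of the 11 passed in PairFedVehicle against Vehicle.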

How the data were processed

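PolyA RNA from brown adipose tissue of 24 samples was sequenced, 6 in each of 4 groups. The deposited table holds log2 expression values per gene, from -0.50 to 22.3. The log2 scale, an offset near 1 and quantile normalization by the authors were inferred from the values, whose sorted libraries are nearly identical. The submitters' processing notes name cutadapt 1.9.1 and GSNAP; the genome build, annotation, counter and use of strand are not given in the sources used here. No count table was used here, so the depth behind a value was estimated from the value of 1 read.

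Groups came from the labels. One mean per group was fitted over all 24 samples with limma 3.58.1 in R 4.3.3, with a mean-variance trend, for 6 contrasts, two-sided, over the 17250 genes with a mean of at least 2.86, with Benjamini-Hochberg adjustment over all of them and a threshold of 0.05. Log2 fold changes had a median SE of 0.15 over all genes and 0.19 over the members. Transcript lengths and exon overlaps came from GENCODE mouse M21 (15395 genes, 89.2% of those tested). The scripts were checked on simulated data. Named with values were the members called in any comparison, a set of 15 main members, and members at the ends of the level range; others, such as Mmp21, were named after their values were seen. The members and lists were chosen with earlier results of these data known. Sample codes run consecutively within each group, so processing order and treatment cannot be told apart. Alternatives covered filters, weights, covariates, normalization, the replicate block and leaving out libraries; length-corrected values and the fit without the 3 libraries low in muscle were chosen after seeing the data. Some results are not reported here.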

Additional observations from a re-analysis of the deposited data

Results flagged for a closer look

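In 5 of 108 groups of 6 samples tested, 1 sample lay apart from the other 5 by a large share of the group's range; chance gives about 1 in 20 such groups. Adamts16 was at 0.00024615 in PairFedVehicle 3, where the others ran from 2.20 to 3.31, and at 0.00024462 in Vehicle 6, where the others ran from 2.68 to 3.79. Mmp15 was at 6.66 in PairFedVehicle 1, with the others at 6.13 to 6.29. Mmp19 was at 7.46 in LAGIPRA 1, with the others at 7.09 to 7.20. Timp1 was at 4.08 in LAGIPRA 5, with the others at 5.16 to 5.77. No cause of these values was tested.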

How the results depend on the processing

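Of 32 calls of a gene in a comparison, 8 held in all of their alternatives: Adamts4 in TZP and PairFedVehicle and Adam9 and Timp4 in PairFedVehicle, each against Vehicle, Mmp11 in its 3 comparisons, and Mmp15 in LAGIPRA against PairFedVehicle. The sign of Timp3 in TZP against Vehicle turned to 0.20 when the length slope entered the model and to 0.13 with TZP 1 and TZP 2 alone. The number of members called is given here with the share of all genes called in the same fit. In TZP against Vehicle it was 1 with the length slope (1.04%) and 3 with TZP 1 and TZP 2 alone (4.74%). In LAGIPRA against Vehicle it was 13 with sample weights (27.7%) and 0 with 1-read values as the covariate (0.261%). It was 3 both with the muscle level as a covariate (8.56%) and without the libraries low in muscle (7.14%). In TZP against PairFedVehicle it was 2 with the length slope (5.17%) and 1 with TZP 1 and TZP 2 alone (5.98%). In LAGIPRA against PairFedVehicle it was 5 with the filter at the median of the table (17%, with 24 members tested). It was 6 with sample weights (18.9%) and 5 with the length slope (14.3%). In TZP against LAGIPRA it was 3 with sample weights (6.21%). For the fits without 1 library the shares of all genes are not reported here. Leaving out 1 library in turn gave 10 to 16 members in TZP against Vehicle, 2 to 12 in LAGIPRA against Vehicle, 4 to 6 in PairFedVehicle against Vehicle, 4 to 8 in TZP against PairFedVehicle, 2 to 4 in LAGIPRA against PairFedVehicle and 0 to 4 in TZP against LAGIPRA. The causes were not tested.

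Replicate numbers did not pair the samples: of 36 same-numbered pairs 12 correlated above 0.1 (range -0.603 to 0.377) and 7 matched their own number best. In LAGIPRA against Vehicle 5 of the 6 pairs were above 0.1 (0.104 to 0.377) and the pair numbered 6 was at -0.043. With the replicate number as a block the counts were 11, 6, 5, 5, 2 and 0 in the same order of comparisons. The shares of all genes called were then 20.6%, 11.1%, 7.55%, 15.2%, 10.2% and 0.133%. Of the 6 in LAGIPRA against Vehicle, 5 were called without the block too. With the block 4 calls of the fit without it did not pass in limma: Adam8 in LAGIPRA against Vehicle (adjusted p = 0.0523), Adamts1 in PairFedVehicle against Vehicle (0.0575), Adamts10 in TZP against PairFedVehicle (0.0736) and Adam9 in LAGIPRA against PairFedVehicle (0.0692). Few reads limit the low genes, since a level of 2.86 equals 2.85 to 7.34 reads.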
